A study of Mus musculus with 16 samples.

Results

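Transcripts of 8 Rgs genes (Rgs1, Rgs2, Rgs3, Rgs4, Rgs5, Rgs10, Rgs16 and Rgs18), which encode regulators of G protein signalling, were followed across the whole aorta of 16 mice. The members were found as the probe sets whose platform annotation gives exactly 1 of these symbols, which gave 22 of the 45101 probe sets on the array and 8 of its 18193 gene symbols. The 8 genes were selected on measured results of these same arrays, and the comparison that led to their choice was not recorded. Every difference between groups below is therefore a description of genes chosen with such differences in view, and its p-value comes from the fit over all genes and is no independent evidence. Of the 22 probe sets 16 passed the filter on dim probe sets, a mean log2 signal above the median of all probe sets (383 on the linear scale). They belonged to 7 genes. The 3 probe sets of Rgs16 did not pass.

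All mice lacked apolipoprotein E (APOE-/-), which makes them prone to atherosclerosis, and all ate a high fat diet for 10 weeks from 8 weeks of age, up to 18 weeks. Mice made diabetic received streptozotocin (STZ), which destroys pancreatic beta cells, at 6 weeks. RBX is ruboxistaurin (LY333531), which inhibits protein kinase C beta and was given with the food, at an amount that the sources used here do not state. The groups were diabetic RBX (STZ, high fat diet with RBX), diabetic (STZ, high fat diet), non-diabetic RBX (no STZ, high fat diet with RBX) and non-diabetic (no STZ, high fat diet), each of 4 mice with 1 Affymetrix array per mouse. No mouse with apolipoprotein E and none on a normal diet was part of these groups.

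RGS proteins speed the hydrolysis of GTP by the alpha subunits of heterotrimeric G proteins and so shorten the signal of a receptor. Most of the proteins followed here are small and act on the Gq and Gi classes; in arteries these carry the signals of angiotensin, endothelin and other constrictors. Rgs5 is known as a transcript of arterial smooth muscle cells and pericytes, Rgs2 and Rgs4 as regulators of contraction, and Rgs1, Rgs10 and Rgs18 as transcripts of leukocytes and platelets.

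Most of the members lie on chromosome 1 of the mouse genome. In the order of protein-coding genes in RefSeq, Rgs5 and Rgs4 are neighbours on chromosome 1. Elsewhere on that chromosome Rgs2, Rgs13, Rgs1, Rgs21 and Rgs18 follow each other, and Rgs16 stands beside Rgs8. Rgs3 lies on chromosome 4 and Rgs10 on chromosome 7.

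The 250 bases upstream of the annotated start of Rgs5, Rgs4 and Rgs10 are shown because the neighbours Rgs5 and Rgs4 had the largest differences of the 7 genes above the filter, and Rgs10 was higher on the arrays on which they were lower. The sequences are from RefSeq on GRCm38.p6, given 5′ to 3′ on the strand of the gene. They are Rgs5 at chr1:169655251-169655500 (plus strand), Rgs4 at chr1:169747643-169747892 (minus strand) and Rgs10 at chr7:128418173-128418422 (minus strand). Capitals mark CCAAT, which reads ATTGG on the other strand, and TATAAA. All motifs were searched on both strands.
Rgs5: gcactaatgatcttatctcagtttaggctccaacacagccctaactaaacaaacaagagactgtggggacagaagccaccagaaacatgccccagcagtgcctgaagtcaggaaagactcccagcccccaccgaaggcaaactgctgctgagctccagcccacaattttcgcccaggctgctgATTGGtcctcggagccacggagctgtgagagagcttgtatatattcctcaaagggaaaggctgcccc
Rgs4: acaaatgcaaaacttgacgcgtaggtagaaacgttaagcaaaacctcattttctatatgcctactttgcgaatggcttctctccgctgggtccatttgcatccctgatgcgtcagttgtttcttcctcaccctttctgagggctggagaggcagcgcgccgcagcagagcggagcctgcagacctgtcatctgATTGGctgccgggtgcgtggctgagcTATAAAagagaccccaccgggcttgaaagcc
Rgs10: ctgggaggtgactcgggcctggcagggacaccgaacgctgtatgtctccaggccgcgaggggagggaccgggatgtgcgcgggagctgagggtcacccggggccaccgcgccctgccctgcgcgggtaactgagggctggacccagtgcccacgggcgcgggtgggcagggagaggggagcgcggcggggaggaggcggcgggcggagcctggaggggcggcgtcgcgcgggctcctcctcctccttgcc
The Rgs5 and Rgs4 windows each held 1 CCAAT match, on the opposite strand, as did 33.8% of the 32851 RefSeq promoters of the same length on either strand. TATAAA was found in the Rgs4 window, as in 12.4% of all promoters, and not in those of Rgs5 and Rgs10. GC content was 53.6% in both the Rgs5 and the Rgs4 window and 76.4% in that of Rgs10, against a median of 52.4% over all promoters. Rgs4 also held 4 matches to CANNTG, present in 66.2% of promoters, and 2 to TGACG, present in 17.8%. Rgs10 held 2 matches to GGGCGG, present in 32.7% of promoters. No CArG box, a motif known from smooth muscle promoters and present in 1.47% of all of them, was found in the windows of the 6 members that had an entry. A match describes these letters and says nothing of binding.

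Arrays of the non-diabetic RBX group stood apart from the non-diabetic arrays in 2 control measures. The hybridisation control cre had log2 signals of 17.48 to 17.57 on the diabetic RBX, 17.07 to 17.64 on the diabetic, 17.88 to 18.77 on the non-diabetic RBX and 16.70 to 17.46 on the non-diabetic arrays. For Actb, the control signal from the 3′ end over that from the 5′ end, which rises with RNA degradation and short labelling products, was in log2 1.47 to 1.89 on the diabetic RBX, 1.16 to 1.52 on the diabetic, 1.67 to 2.51 on the non-diabetic RBX and 0.85 to 1.32 on the non-diabetic arrays. The cre signal of the non-diabetic RBX arrays was above that of all other arrays, while their Actb ratio overlapped with that of the diabetic RBX arrays. Neither measure overlapped between non-diabetic RBX and non-diabetic arrays, so the part of RBX in any difference between them cannot be told apart from that of the measures. The same ratio for Gapdh did overlap between these 2 groups. In log2 it was 0.12 to 0.52 on the non-diabetic RBX and 0.0 to 0.25 on the non-diabetic arrays. It was 0.31 to 0.47 on the diabetic RBX and -0.02 to 0.31 on the diabetic arrays. Markers of the vessel wall were present: all 10 smooth muscle and all 8 endothelial markers passed the filter. Of the genes that frame the study, Prkcb, which encodes protein kinase C beta, passed the test in none of the 5 comparisons. Apoe had a log2 difference of -1.87 (SE 0.55) between diabetic RBX and non-diabetic RBX mice (limma, adjusted p = 0.0461) and an interaction of -2.54 (SE 0.78; adjusted p = 0.0418), in mice whose Apoe is disrupted.

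Differences were tested with limma over 11036 genes, 1 probe set per gene, and a gene is said to have risen or fallen where its Benjamini-Hochberg adjusted p was under 0.05. RBX in non-diabetic mice was the comparison with most calls: 6 of the 7 members passed the test, where 31.7% of all genes did. Rgs1, Rgs10 and Rgs18 rose, as did 16.5% of all genes, and Rgs4, Rgs5 and Rgs3 fell, as did 15.1%. The values of the 2 groups did not overlap for 4 of the 7 (Rgs4, Rgs5, Rgs1 and Rgs10), against 27.5% of all genes. The median log2 difference was 0.16 over the members and 0.03 over all genes, with 4 members above 0 and 3 below. These figures cover the members that passed the filter, in a comparison that may have led to their choice, and nothing is read from them about the group of genes. With the log2 cre signal as a covariate none of the 7 members passed (limma, adjusted p from 0.325 to 0.777), and Rgs4 had -1.44 and Rgs5 -0.86. With the Actb ratio as a covariate none passed either (Rgs4 -1.45, adjusted p = 0.187; Rgs5 -1.33, adjusted p = 0.147).

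**Figure D1:**
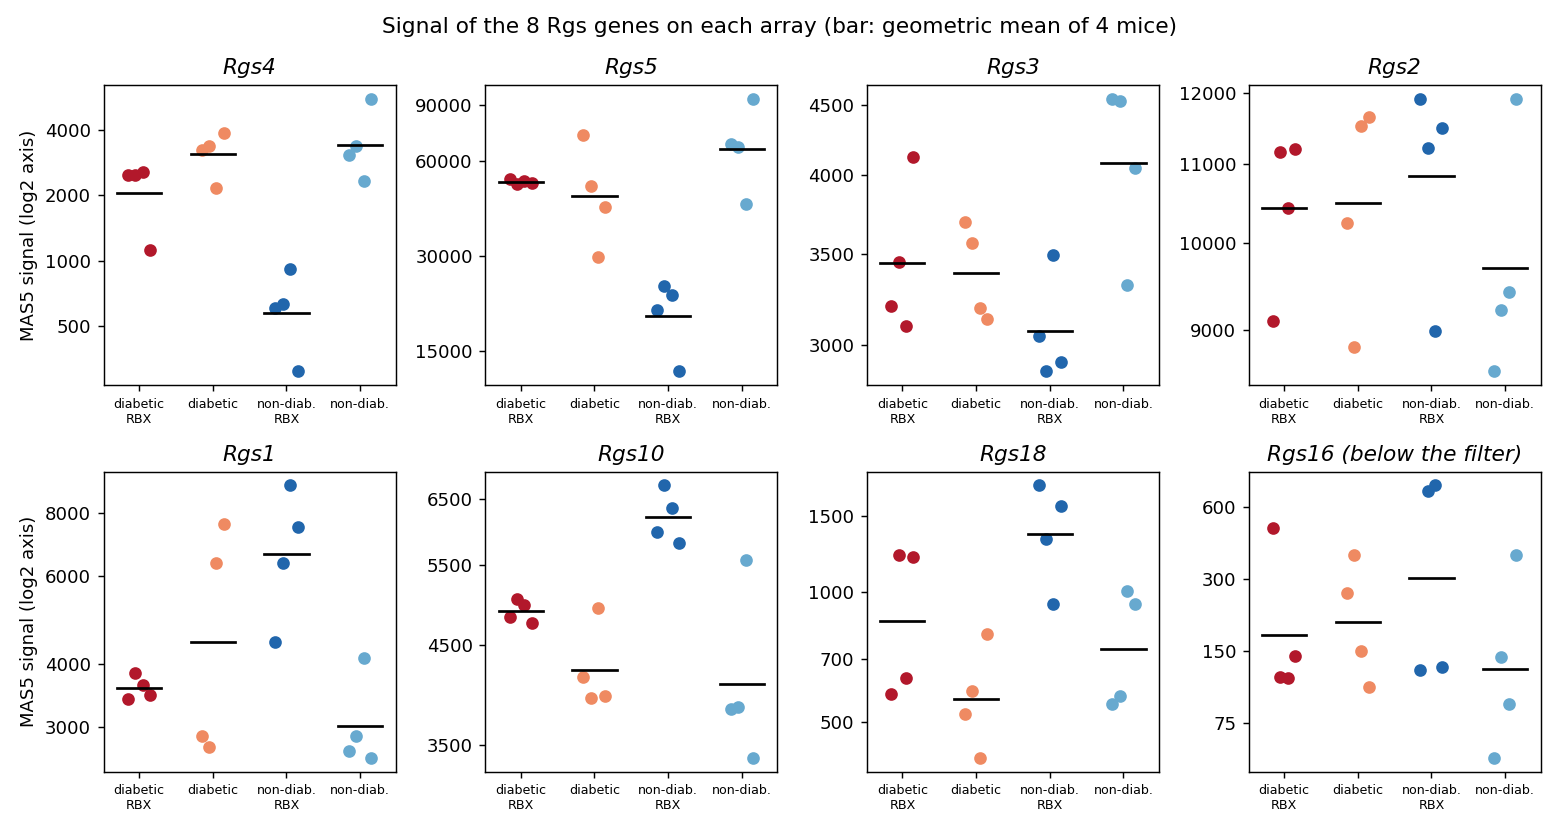
Signal of each Rgs gene (MAS5 signal on a log2 axis, the probe set in the fit; for Rgs16 its brightest probe set, below the filter) on the 16 arrays, with diabetic RBX, diabetic, non-diabetic RBX and non-diabetic mice from left to right and a bar at the geometric mean of 4 mice. The non-diabetic RBX points lie below all others for Rgs4 and Rgs5 and above all others for Rgs10.

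Rgs5 limits Gq and Gi signals in arterial smooth muscle and pericytes. Its signal was 20142, 23956, 22561 and 12877 in non-diabetic RBX mice, against 67754, 66193, 43720 and 94655 in non-diabetic mice. It was 52614, 50500, 51695 and 51183 in diabetic RBX mice, against 72743, 50111, 29620 and 42888 in diabetic mice. All 4 non-diabetic RBX arrays lay below the 12 others. The log2 difference of non-diabetic RBX from non-diabetic mice was -1.76 (SE 0.24), a 3.39-fold lower signal (limma, adjusted p = 4.79e-05). The means were 19884 ± 4930 and 68081 ± 20800 in these 2 groups (SD, n = 4 each). The SD was 891 in diabetic RBX mice, against 18100 in diabetic mice, and the log2 difference between them was 0.15 (SE 0.24; adjusted p = 0.897).

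Rgs4, the neighbour of Rgs5, damps Gq signalling and in other tissues is known for its fast turnover. Its signal was 604.5, 630.5, 918.0 and 308.5 in non-diabetic RBX mice, against 3089, 3394, 2329 and 5598 in non-diabetic mice. Again every non-diabetic RBX array lay below the 12 others, the nearest of which was diabetic RBX mouse 4. In diabetic RBX mice the signal was 2481, 2497, 2568 and 1125, against 3230, 3385, 2154 and 3897 in diabetic mice. The log2 difference in non-diabetic mice was -2.58 (SE 0.32), a 5.97-fold lower signal with RBX (limma, adjusted p = 2.27e-05). In diabetic mice it was -0.59 (SE 0.32; adjusted p = 0.593), with overlapping values.

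Rgs3, which acts on Gq and Gi and is made in long and short forms, gave opposite results on its 2 brightest probe sets. On 1425296_a_at, the probe set in the fit, signals were 3046, 2870, 3494 and 2915 in non-diabetic RBX mice, against 4552, 4536, 3320 and 4051 in non-diabetic mice. The groups overlapped through 1 array each, and the log2 difference was -0.41 (SE 0.12; limma, adjusted p = 0.0159). Without non-diabetic mouse 1 or mouse 2 it was -0.36 and did not pass (adjusted p = 0.0556 and 0.055). On 1449516_a_at, signals were 1820, 2410, 2274 and 2825 in non-diabetic RBX mice, against 1284, 1246, 1112 and 1166 in non-diabetic mice. Here all RBX values lay above all values without it, and the log2 difference was 0.94 (SE 0.17; adjusted p = 0.000489 in a fit of every probe set apart). The third probe set above the filter, 1425701_a_at, had -0.39 (SE 0.23; adjusted p = 0.228), and the fourth, 1454026_a_at, was below the filter. The direction of Rgs3 therefore depended on the probe set, and with the mean of its probe sets the log2 difference was 0.05. Which transcripts each probe set measures was not used here.

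The difference between both Rgs3 probe sets within an array needs no scaling between arrays. As log2 of 1449516_a_at minus log2 of 1425296_a_at it ranged from -0.74 to -0.05 in non-diabetic RBX mice, against -1.86 to -1.58 in non-diabetic mice. The group means differed by 1.35, and the ranges did not overlap. It ranged from -1.49 to -0.56 in diabetic mice, and the difference from the same non-diabetic arrays was 0.85. These 2 comparisons share their non-diabetic arrays. Diabetic RBX mice, from -1.19 to -0.71, differed from diabetic mice by -0.03 and from non-diabetic RBX mice by -0.53. These differences restate the values of both probe sets above and are given with no test. The direction of either probe set alone is not known from them. The log2 Actb ratio also differed by group. Its mean was 1.04 on the non-diabetic, 1.34 on the diabetic, 1.71 on the diabetic RBX and 2.08 on the non-diabetic RBX arrays. The part of that ratio in the Rgs3 differences was not tested.

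**Figure D2:**
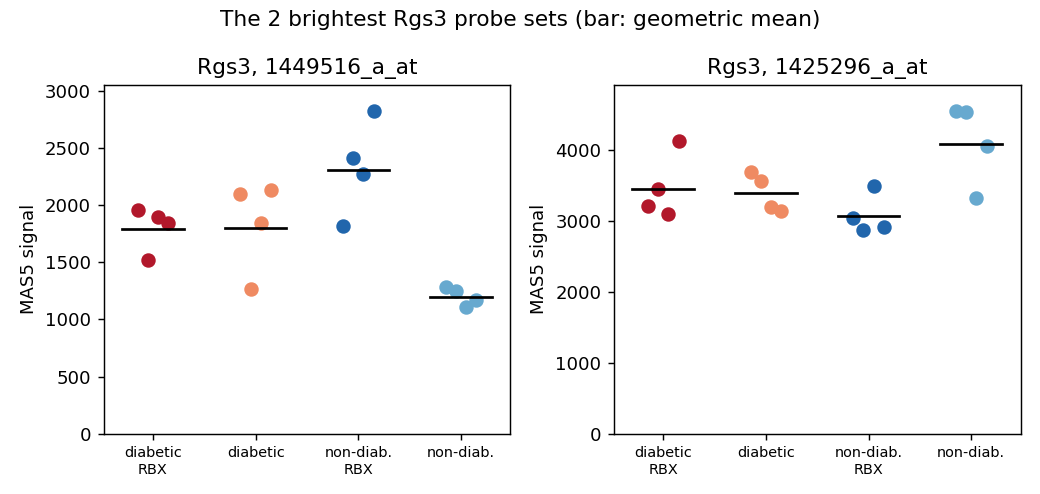
MAS5 signal (linear axis from 0) of the 2 brightest Rgs3 probe sets on each array, by group from diabetic RBX on the left to non-diabetic on the right, with a bar at the geometric mean of 4 mice. On 1449516_a_at the non-diabetic arrays, at 1112 to 1284, have the lowest mean, and on 1425296_a_at, at 3320 to 4552, they have the highest mean.

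Rgs2, which prefers Gq and whose loss raises blood pressure in mice, was the member in the fit that did not pass in this comparison. Its signal was 11910, 11223, 8988 and 11502 in non-diabetic RBX mice, against 8554, 9221, 9425 and 11915 in non-diabetic mice. These ranges overlapped almost fully, with a log2 difference of 0.16 (SE 0.12; limma, adjusted p = 0.337). Over all 16 arrays its signal stayed between 8554 and 11915, and its differences in the 5 comparisons were from -0.17 to 0.16 without passing the test.

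Rgs16, an inducible member that acts on Gi and Gq, could not be followed above the dim range. On its brightest probe set, 1455265_a_at, signals were 124.8, 699.6, 737.3 and 128.8 in non-diabetic RBX mice, against 53.5, 140.9, 90.3 and 376.8 in non-diabetic mice. Replicates differed by more than the groups did, and without the filter the log2 difference was 1.25 (SE 0.76; adjusted p = 0.305). On 1426037_a_at it was 2.59 (SE 0.94; adjusted p = 0.0732), with 42.2, 30.6, 612.5 and 265.8 in non-diabetic RBX mice and 30.5, 15.6, 10.5 and 31.8 in non-diabetic mice. The third probe set had 0.43 (SE 0.86).

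Rgs1, a transcript of activated lymphocytes and of macrophages that dampens chemokine receptors, had signals of 4424, 6373, 9084 and 7491 in non-diabetic RBX mice, against 2677, 2875, 4106 and 2597 in non-diabetic mice. The groups did not overlap. The log2 difference was 1.14 (SE 0.28), a 2.20-fold higher signal (limma, adjusted p = 0.00496). In diabetic RBX mice signals were 3411, 3837, 3636 and 3474, close to each other, against 2875, 2739, 6351 and 7612 in diabetic mice. The diabetic group thus held a pair of low and a pair of high arrays, and its log2 difference to diabetic RBX mice was -0.30 (SE 0.28; adjusted p = 0.784).

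Rgs10, a small regulator of Gi known from macrophages and microglia, had signals of 5983, 6724, 6355 and 5819 in non-diabetic RBX mice, against 3826, 3848, 5571 and 3383 in non-diabetic mice. Non-diabetic RBX arrays were the 4 highest of the 16. The log2 difference was 0.61 (SE 0.13; limma, adjusted p = 0.00155). In diabetic RBX mice signals were 4822, 5048, 4974 and 4750, against 4146, 3936, 4942 and 3952 in diabetic mice. Only 1 diabetic array reached the range of the diabetic RBX arrays, but the log2 difference of 0.21 (SE 0.13) did not pass (adjusted p = 0.627).

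Rgs18, a regulator found in platelets and megakaryocytes, had signals of 1766, 1324, 938.8 and 1579 in non-diabetic RBX mice, against 551.7, 573.8, 1006 and 936.0 in non-diabetic mice. The groups overlapped through RBX mouse 3. The log2 difference was 0.89 (SE 0.30; limma, adjusted p = 0.0311), and it did not pass without RBX mouse 1 or 4 or without non-diabetic mouse 1 or 2 (adjusted p from 0.0742 to 0.0968). Its other probe set, 1420398_at, gave 1208, 1223, 1160.5 and 2113 in non-diabetic RBX mice, against 497.9, 595.5, 731.4 and 1160.3 in non-diabetic mice, a log2 difference of 0.96 (SE 0.30; adjusted p = 0.025 in the fit of every probe set apart). Both probe sets were thus higher with RBX in non-diabetic mice.

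**Figure D3:**
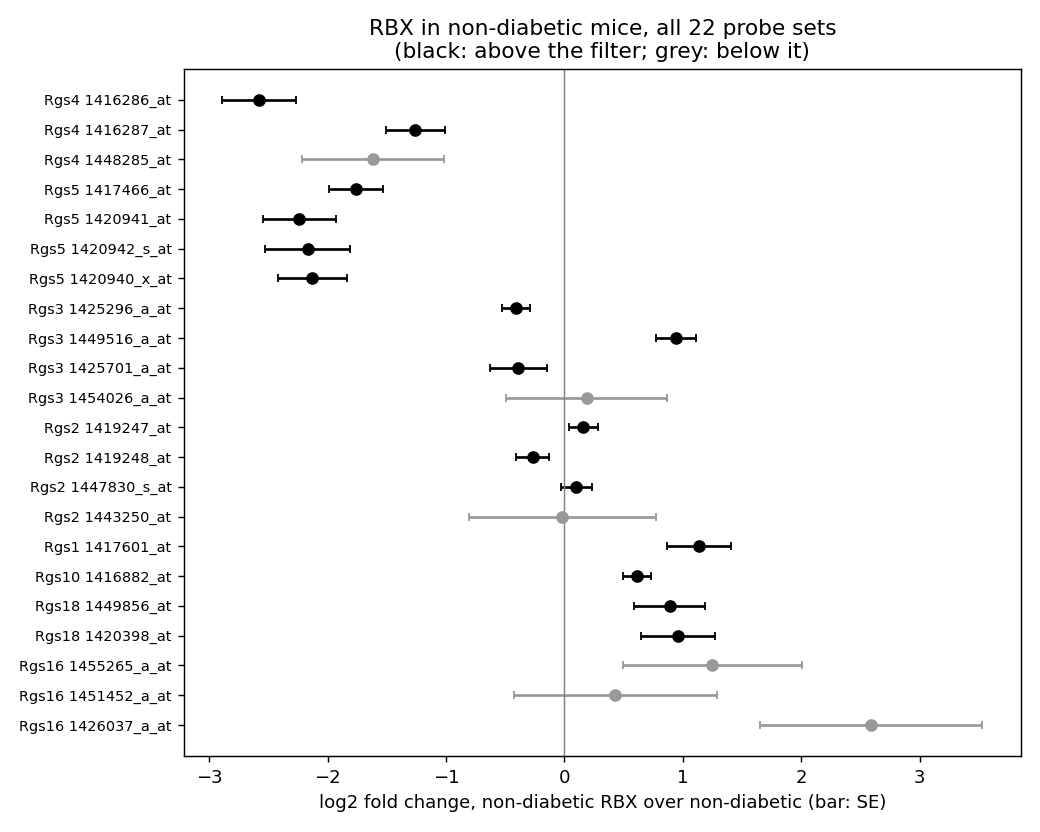
Log2 fold change (points, with the SE as bars) of non-diabetic RBX over non-diabetic mice for each of the 22 Rgs probe sets, grouped by gene, with probe sets above the filter in black and those below it in grey. All probe sets of Rgs4 and Rgs5 lie below 0, both of Rgs18 lie above it, and those of Rgs3 and Rgs2 lie on both sides.

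Of the 16 probe sets above the filter, those of Rgs5 and Rgs4 all fell with RBX in non-diabetic mice. The 3 other Rgs5 probe sets had log2 differences of -2.13, -2.24 and -2.17, each larger in size than that of the probe set in the fit. The other Rgs4 probe set above the filter had -1.26 (SE 0.25, adjusted p = 0.00135 in the fit of every probe set apart). The dim one, 1448285_at, had -1.62 (SE 0.60) without the filter. Its groups overlapped and it did not pass (limma, adjusted p = 0.0758). The size for Rgs4 thus varied with the probe set, while the sign did not. The other 2 Rgs2 probe sets above the filter had -0.27 and 0.10. Probe sets of a gene share their arrays and are no replicates.

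Diabetes was compared without RBX first. None of the 7 members passed (limma, adjusted p from 0.301 to 0.897), where 0.652% of all genes did, and 1 member, Rgs3, had an unadjusted p under 0.05, as had 1682 of the 11036 genes. Rgs3 had -0.27 (SE 0.12) on the probe set in the fit. On 1449516_a_at the sign was opposite, at 0.58 (SE 0.17), and did not pass either (adjusted p = 0.116 in the fit of every probe set apart). No member had groups that did not overlap, against 9.45% of all genes. The median log2 difference was -0.14 over the members and 0.01 over all genes. Rgs1 had 0.55 (SE 0.28; adjusted p = 0.354), with diabetic mice 3 and 4 above all non-diabetic arrays. Rgs5 had -0.50 (SE 0.24; adjusted p = 0.337), with the same mice below all non-diabetic arrays. These 2 diabetic arrays, high in Rgs1 and low in Rgs5, also had the higher sums of the 8 endothelial markers, 65795 and 63869 against 44555 and 40128 on the arrays of diabetic mice 1 and 2. Their sums were lower for the smooth muscle markers, 441124 and 404776 against 476686 and 487258, and for the pericyte markers, 65545 and 64479 against 77974 and 76866. For the macrophage markers the pairs overlapped, with sums of 263537 and 245108 against 194712 and 246143 on the arrays of mice 1 and 2. The part of the markers in the spread of Rgs1 and Rgs5 was not tested.

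For RBX in diabetic mice none of the 7 members passed (adjusted p from 0.556 to 0.991 in limma), where 0.0453% of all genes passed. None had an unadjusted p under 0.05 either, and no member had groups without overlap, against 6.89% of all genes. The median log2 difference was 0.03 over the members and -0.02 over all genes. The largest in size were 0.60 (SE 0.30; adjusted p = 0.556) for Rgs18 and -0.59 for Rgs4. A miss does not show equal levels.

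Diabetes under RBX set diabetic RBX against non-diabetic RBX mice, which are the same non-diabetic RBX arrays as above. Rgs4 and Rgs5 were higher in diabetic RBX mice, and these were the 2 members of 7 that passed, where 7.10% of all genes did. Rgs4 had a log2 difference of 1.84 (SE 0.32; limma, adjusted p = 0.00257) and Rgs5 1.41 (SE 0.24; adjusted p = 0.00215), which are 3.59-fold and 2.66-fold higher signals. In the fit of every probe set apart, the other Rgs4 probe set above the filter had 1.03 (SE 0.25, adjusted p = 0.0198). The other Rgs5 probe sets had 1.40, 1.75 and 1.24 there. The last of them, 1420942_s_at, did not pass (SE 0.38, adjusted p = 0.0581). Values of the 2 groups did not overlap for 4 members (Rgs4, Rgs5, Rgs1 and Rgs10), against 12.5% of all genes. Rgs1 had -0.88 (SE 0.28; adjusted p = 0.0612) and Rgs10 -0.34 (SE 0.13; adjusted p = 0.104), so that neither passed, although Rgs1 did without non-diabetic RBX mouse 1 (-1.08; adjusted p = 0.0264), with the replicate number as a block (adjusted p = 0.025) and in a fit of only the 2 groups compared (adjusted p = 0.0254). With the cre covariate Rgs4 had 1.19 (adjusted p = 0.285) and Rgs5 0.90 (adjusted p = 0.269), and neither passed. With the Actb ratio as a covariate both passed, Rgs4 at 1.45 (adjusted p = 0.0306) and Rgs5 at 1.26 (adjusted p = 0.0239). Rgs18 had -0.67 (SE 0.30; adjusted p = 0.181) on the probe set in the fit and -1.07 (SE 0.30; adjusted p = 0.0412) on its other probe set, which passed in the fit of every probe set apart.

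**Figure D4:**
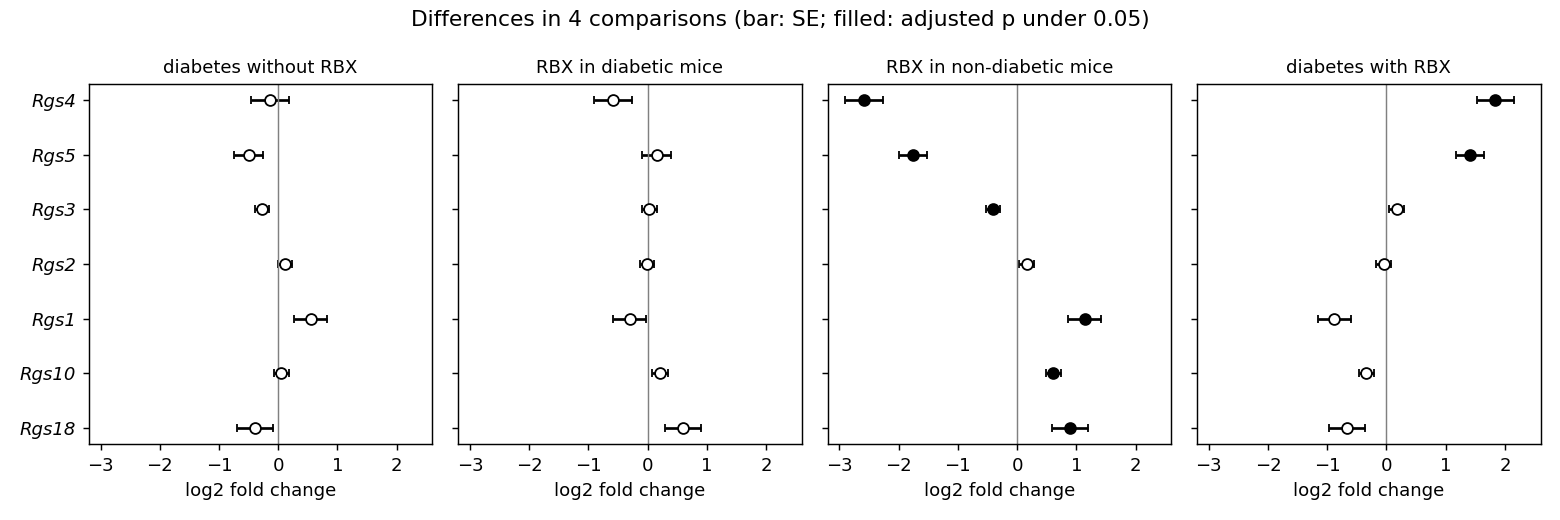
Log2 fold change (points) with its SE (bars) for the 7 Rgs genes in the fit, in the comparisons diabetes without RBX (diabetic over non-diabetic), RBX in diabetic mice (diabetic RBX over diabetic), RBX in non-diabetic mice (non-diabetic RBX over non-diabetic) and diabetes with RBX (diabetic RBX over non-diabetic RBX), with filled points where the adjusted p was under 0.05. Filled points number 0, 0, 6 and 2 in these panels, and Rgs4 and Rgs5 lie at -2.58 and -1.76 in the third and at 1.84 and 1.41 in the fourth.

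Whether the effect of RBX differed between diabetic and non-diabetic mice was tested as an interaction, with the effect in non-diabetic mice subtracted from that in diabetic mice. It passed for 3 of the 7 members (Rgs1, Rgs4 and Rgs5), where 11.5% of all genes passed. Rgs4 had an RBX effect of -0.59 in diabetic and -2.58 in non-diabetic mice, a difference of 1.99 (SE 0.46; limma, adjusted p = 0.0102). On its other probe set above the filter, 1416287_at, the difference was 0.78 (SE 0.36) and did not pass (adjusted p = 0.172 in the fit of every probe set apart). For Rgs5 the effects were 0.15 and -1.76, a difference of 1.91 (SE 0.34; adjusted p = 0.00198). For Rgs1 they were -0.30 and 1.14, a difference of -1.44 (SE 0.39; adjusted p = 0.0248), which did not pass without diabetic mouse 3 (adjusted p = 0.0607) or without non-diabetic mouse 1 or 4 (adjusted p = 0.0518 and 0.0532). Rgs3 had 0.44 (SE 0.17; adjusted p = 0.105), Rgs10 -0.39 (SE 0.18; adjusted p = 0.156), Rgs18 -0.28 (SE 0.42; adjusted p = 0.708) and Rgs2 -0.17 (SE 0.17; adjusted p = 0.569). On 1449516_a_at, the Rgs3 probe set that rose, it was -0.94 (SE 0.24; adjusted p = 0.0177 in the fit of every probe set apart), opposite in sign to the probe set in the fit. All of these values rest on the non-diabetic RBX arrays that stood apart, and with the cre covariate none of the 3 passed (adjusted p from 0.331 to 0.555). With the Actb ratio as a covariate Rgs5 passed, and Rgs1 and Rgs4 did not.

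Cell type markers also differed between non-diabetic RBX and non-diabetic mice, where 16.5% of all genes rose and 15.1% fell. A whole aorta holds many cell types, so fewer cells of a type and less RNA per cell cannot be told apart. Of the 10 smooth muscle markers 9 were below 0 in non-diabetic RBX against non-diabetic mice, with a median log2 difference of -1.02, and 7 fell (Smtn, a cytoskeletal protein of contractile cells, by 1.89) while 1, Acta2 (smooth muscle actin, named after its value was seen), rose. Their summed signal was 312689 to 491188 in non-diabetic RBX mice, against 474358 to 513111 in non-diabetic mice. All 6 pericyte markers in the fit were below 0 (3 fell, with Mcam, an adhesion molecule of mural cells, at -1.52), and their sum was 39728 to 62498 in non-diabetic RBX mice, against 70558 to 94673 in non-diabetic mice. On the array of non-diabetic RBX mouse 2 the smooth muscle sum, 491188, lay within the non-diabetic range and the pericyte sum, 62498, below it, with Rgs5 at 23956 and Rgs4 at 630.5. A sum is carried by its brightest markers, so it can stay level where most markers are lower. The part of these markers in the differences of Rgs4, Rgs5 and Rgs3 was not tested.

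Most markers of several other cell types were higher in non-diabetic RBX than in non-diabetic mice, as were Rgs1, Rgs10 and Rgs18. Among all genes 16.5% rose. All 8 macrophage markers were above 0 in non-diabetic RBX against non-diabetic mice, with a median of 0.69, and 5 rose. Their sum was 231671 to 338845 in non-diabetic RBX mice, against 162146 to 243757 in non-diabetic mice. All 5 platelet and megakaryocyte markers in the fit rose (Pf4, a platelet chemokine, by 1.33), with a median of 1.26, and their sum did not overlap at 21443 to 37070 in non-diabetic RBX mice, against 10247 to 15567 in non-diabetic mice. The same 5 fell between diabetic RBX and non-diabetic RBX mice, with a median of -0.91, where 7.10% of all genes passed. All 8 endothelial markers were above 0, 7 of them rose, and their sum was 55169 to 82146 in non-diabetic RBX mice, against 36271 to 42701 in non-diabetic mice. Of the 7 fibroblast markers 6 were above 0 and 4 rose (Pi16, a marker of adventitial fibroblasts, by 1.25), and their sum was 388607 to 602727 in non-diabetic RBX mice, against 365535 to 476689 in non-diabetic mice. Of the T cell markers 1 and of the B cell markers 2 passed the filter. The part of these markers in the differences of Rgs1, Rgs10 and Rgs18 was not tested.

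**Figure D5:**
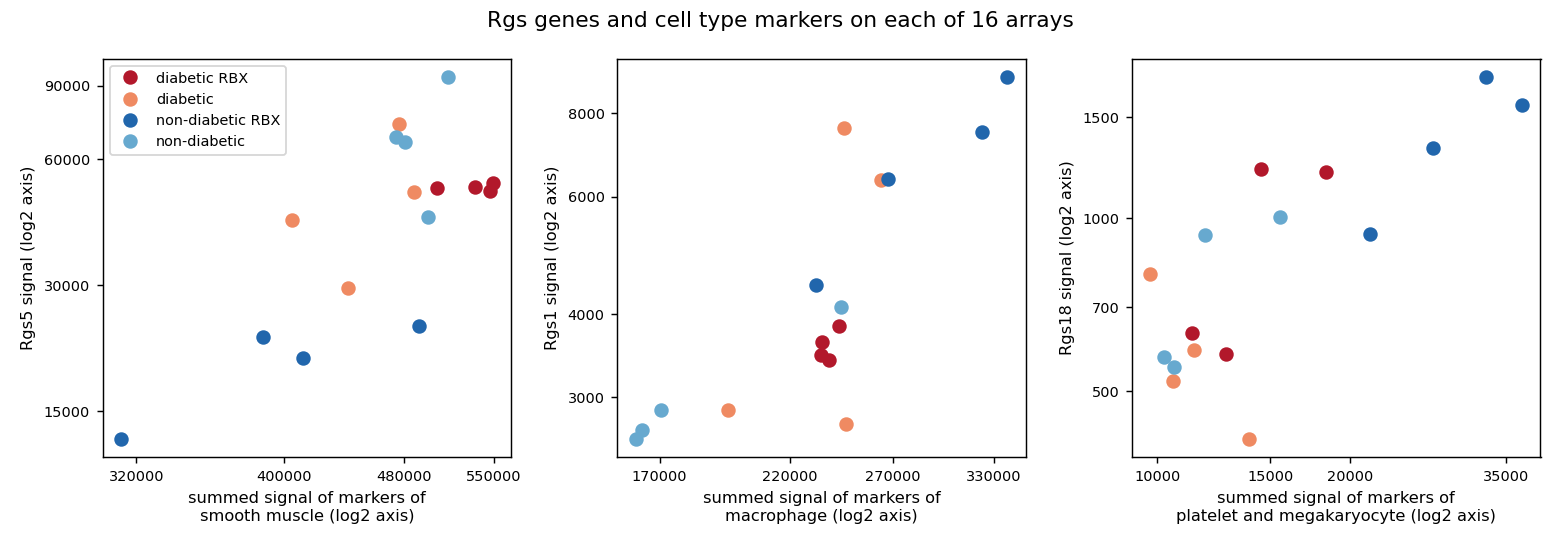
Signal of Rgs5, Rgs1 and Rgs18 (vertical axes, log2) against the summed signal of the markers of smooth muscle, macrophages, and platelets and megakaryocytes (horizontal axes, log2) on each of 16 arrays, coloured by group. The 4 non-diabetic RBX arrays have the highest platelet marker sums. They also have the 4 lowest Rgs5 signals, with smooth muscle sums of 312689 to 491188.

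Relations between members within groups did not pass the test. Over deviations from the group means on 16 arrays, none of the 21 pairs of members passed after adjustment over the pairs. The closest was Rgs4 with Rgs5, with Pearson's r = 0.672 (exact permutation within groups p = 0.00549, adjusted p = 0.115), Spearman's rho = 0.465 (exact permutation p = 0.0853, adjusted p = 0.597) and r = 0.697 without the 2 farthest arrays. Rgs2 and Rgs18 had r = 0.606 (exact permutation p = 0.0247, adjusted p = 0.259) with rho = 0.562 (exact permutation p = 0.0323, adjusted p = 0.339) and r = 0.631 without the 2 farthest arrays. Rgs1 and Rgs5 ran opposite, with r = -0.591 (exact permutation p = 0.0879, adjusted p = 0.333), rho = -0.718 (exact permutation p = 0.029, adjusted p = 0.339) and r = -0.682 without the 2 farthest arrays. In each pair the 2 arrays left out were those farthest from the median deviation of the gene named first. Arrays far out in the other gene could remain.

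Likeness to a member was taken as Pearson's r over the 16 arrays, which share their scaling and the apartness of the non-diabetic RBX group. Clones, predicted genes, expressed sequence tags and mitochondrial genes were skipped. So were all symbols that start with C and a digit, such as C1qa. Of the other genes tested, the 3 with the highest r were taken for each member. For Rgs4 these were Filip1l, a filamin-binding protein (r = 0.980, and 0.894 over deviations from the group means), the kinase Stk38l (0.978) and the transcription factor Zfp281 (0.975). For Rgs5 they were the RNA-binding Samd4 (r = 0.960, and 0.878 within groups), Usp34 (0.957) and the cadherin Cdh6 (0.956). For Rgs3 they were the kinase Lats1 (r = 0.866, and 0.757 within groups), the protease Mmp17 (0.860) and the calcium release channel Ryr2 (0.857). The r values of Rgs2 were lower, with the small GTPase Rnd1 (r = 0.759, and 0.756 within groups), Heg1 (0.748) and the transcription factor Fli1 (0.744). For Rgs1 they were Itgb2, the common chain of the leukocyte integrins (r = 0.952, and 0.919 within groups), Gltp (0.951) and Tmem106a (0.948). Rgs10 ran most like Serhl (r = 0.929, and 0.759 within groups), the retinaldehyde dehydrogenase Aldh1a1 (0.924) and Bag1 (0.899). Rgs18 ran most like Gp1bb, a subunit of the platelet von Willebrand factor receptor and 1 of the platelet markers above (r = 0.862, and 0.650 within groups), Kcnt2 (0.813) and Mnt (0.805).

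Of 15 further Rgs genes and binding partners 13 were on the array and 7 were in the fit. With RBX in non-diabetic mice Rgs14, a scaffold of Gi and Ras signals, rose by 0.59 (SE 0.22; limma, adjusted p = 0.046), and the other 6 did not pass. Rgs17 had -0.99 (SE 0.43; adjusted p = 0.0846) and Rgs19 0.35 (SE 0.15; adjusted p = 0.0739). The median over the 7 was 0.31, against 0.03 over all genes. None of them passed in the other 4 comparisons.

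The proteins that RGS proteins act on, and their partners, were read from lists of the pathway. Of 17 G protein subunits in the fit 6 rose and 4 fell with RBX in non-diabetic mice, with a median of 0.19. In this comparison 16.5% of all genes rose and 15.1% fell. Gnai1, a Gi alpha subunit, fell by 1.25 (SE 0.12; limma, adjusted p = 2.81e-06) and Gnb4, a beta subunit, by 1.20, while Gnaq, the Gq alpha subunit, rose by 0.53 and Gng11 by 0.92. Gnai1 and Gnaq thus moved in opposite directions. Of 18 receptors of the vessel wall that couple to Gq or Gi 7 rose and 3 fell, with a median of 0.34. The serotonin receptor Htr1b fell by 2.56 (SE 0.29; adjusted p = 9.03e-06), and the endothelin receptor Ednrb, the lysophosphatidic acid receptor Lpar1 and the sphingosine phosphate receptor S1pr3 rose by 1.11, 0.90 and 0.93.

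Receptor kinases and arrestins, which end signals at the receptor, rose in 4 of 5 cases, with a median of 0.55 (Grk3 0.64, Grk6 0.46, Arrb2 0.75 and Arrb1 0.55). Among all genes 16.5% rose. Of effectors downstream, only the 4 with the smallest p are given. The soluble guanylate cyclase subunits Gucy1b1 and Gucy1a1, which sense nitric oxide, fell by 1.71 and 1.48, and phospholipase Plcb4 fell by 1.20. The calcium release channel Itpr2 rose by 1.47 (SE 0.13; limma, adjusted p = 2.55e-06). The median of all genes was 0.03.

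In the other comparisons fewer genes of these lists passed. Of all genes 0.652% passed for diabetes without RBX, 0.0453% for RBX in diabetic mice and 7.10% for diabetes under RBX. Diabetes without RBX had 1 receptor that rose (Ednrb, 1.17, SE 0.25; limma, adjusted p = 0.0409) and no subunit, kinase or arrestin that passed, and among the 4 effectors named Itpr2 rose by 0.71 (SE 0.13; adjusted p = 0.0203) and Gucy1a1 fell by 0.83 (SE 0.19; adjusted p = 0.0446). RBX in diabetic mice had none among the subunits, receptors, kinases and arrestins. Diabetes under RBX had 2 subunits and 2 receptors that rose and 1 of the kinases and arrestins that fell. There Gnai1 rose by 0.79, Htr1b by 1.69, Plcb4 by 0.87 and Gucy1b1 by 1.07, while Itpr2 fell by 0.59.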

How the data were processed

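Whole aorta RNA of 16 mice was measured on 1 Affymetrix array each. Per the labels' protocols, Trizol was used for extraction, and 2 ug of RNA went into biotinylated cRNA. The deposited values are intensity on a linear scale, made by the authors with MAS5 per the submitters' processing notes; neither version nor genome build is given in the sources used here. The mean of each array without 2% of the values at either end was 1500.01, so arrays had been scaled to 1 level. Detection calls were not used here. Every column of values belonged to 1 sample (columns with none: 0).

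Probe sets were named from GEO's platform annotation (34945 had 1 symbol, 932 several, 64 were controls), and all 8 members were found by Entrez identifier in RefSeq (GRCm38.p6). The log2 of each value was used without an offset. Probe sets with a mean above the median of all (383) were kept, and the one with the highest mean stood for its gene, which left 11036 genes. limma 3.58.1 in R 4.3.3 (data.table, version 1.17.8) was fitted on all 16 arrays with 4 group means, an intensity trend, 12 residual and 6.2 prior degrees of freedom. P-values are two-sided, with Benjamini-Hochberg adjustment over all genes and a threshold of 0.05. Probe sets were also fitted apart, with and without the filter. On simulated data for diabetes without RBX over 11036 genes, 75% of changes of 1 log2 unit and 94% of changes of 2 were recovered. Tables were made with Python 3.11.15 (pandas 2.3.3, numpy 2.4.6).

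Members, lists and tests were chosen with earlier results of these data known. All members are named; of each list, up to 4 genes with the smallest p. Counts over the list of effectors are not reported here. The alternatives were 14 settings of scaling, filter, offset, probe set choice, variance model, replicate block, groups fitted and array covariates, and each array left out in turn. The number of arrays limits the precision. Each array is 1 mouse per the labels.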

Additional observations from a re-analysis of the deposited data

Results flagged for a closer look

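Rgs4 in diabetic RBX mice had 1 array far from the others. The signal was 1125 in mouse 4, against 2481 to 2568 in mice 1 to 3, and the gap was 0.958 of the range, above Dixon's critical value for 4 samples. Of 28 groups of member values checked, chance flags about 1 in 20. On the same array the smooth muscle marker sum was 504284 and the platelet marker sum 18358, the lowest and the highest of the group, and the other Rgs4 probe set above the filter was at 1169, against 1721 to 2067 on the 3 others.

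For 3 members the test of a difference in the effect of RBX between diabetic and non-diabetic mice passed. These genes were chosen on results of the same arrays, so the test is no independent evidence. The difference, diabetic minus non-diabetic, was -1.44 for Rgs1, 1.99 for Rgs4 and 1.91 for Rgs5 on the log2 scale. On the other Rgs4 probe set above the filter it was 0.78 and did not pass. The 4 non-diabetic RBX arrays, which had a higher cre signal than all other arrays and a higher Actb ratio than the non-diabetic arrays, enter each of these values. None of the 3 members passed with the cre covariate, and only Rgs5 passed with the Actb ratio. The Rgs1 call held in 13 of 16 fits with an array left out.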

How the results depend on the processing

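Calls that rest on the non-diabetic RBX arrays were mostly lost with covariates that separate those arrays from the non-diabetic ones. The calls that held, with the Actb ratio, were those of 2 members for diabetes with RBX and of Rgs5 for the interaction. With log2 cre signal as a covariate 0 members passed for RBX in non-diabetic mice, 0 for diabetes with RBX and 0 for the interaction, while of all genes 0 (1494 with p under 0.05 before adjustment), 5 and 0 passed in limma. With the Actb ratio, 0 members passed for RBX in non-diabetic mice, where 174 genes did, and 1 for the interaction (Rgs5). Where a covariate and a group move together, a lost call cannot be told apart from a shared effect. With array weights 2 members passed for diabetes without RBX (Rgs3 at -0.35 on the probe set in the fit and Rgs5 at -0.62), where 1207 genes passed against 72. The cause was not tested.

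Leaving out each array in turn gave 0 members for diabetes without RBX, 0 for RBX in diabetic mice, 4 to 6 for RBX in non-diabetic mice, 2 to 3 for diabetes with RBX and 2 to 5 for the interaction. The 5 came without non-diabetic replicate 3, which added Rgs3 at 0.53 and Rgs10 at -0.54. Rgs4 and Rgs5 passed with any 1 array left out in the 3 comparisons in which they were called.

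Members that were not called changed sign in some settings, with Rgs3 for RBX in non-diabetic mice as the only called value that did. With the mean of probe sets Rgs3 had 0.06 for diabetes without RBX, -0.10 and 0.05 for RBX in diabetic and in non-diabetic mice, -0.09 for diabetes with RBX and -0.15 for the interaction. In the same setting Rgs2 had 0.04 and -0.002 for RBX in diabetic and in non-diabetic mice, 0.09 for diabetes with RBX and 0.04 for the interaction, and Rgs4 0.05 for diabetes without RBX. For that comparison Rgs4 had 0.18 with cre and 0.19 with the Actb ratio, and Rgs10 -0.03 and -0.003. For RBX in diabetic mice Rgs2 had 0.02 both with quantile normalization and with cre, and Rgs3 -0.004 with array weights. Rgs18 had 0.20 in the interaction with the Actb ratio. With single arrays left out, for diabetes without RBX Rgs4 ranged from -0.33 to 0.09 and Rgs10 from -0.04 to 0.20. For RBX in diabetic mice the ranges were -0.09 to 0.06 for Rgs2, -0.06 to 0.08 for Rgs3 and -0.07 to 0.37 for Rgs5, and for diabetes with RBX -0.15 to 0.01 for Rgs2.

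Samples with the same number did not deviate together (correlations of deviations from -0.14 to 0.11, with 1 of 16 over 0.1). The replicate block gave 0, 0, 6, 3 and 3 members called, with Rgs1 added for diabetes with RBX (adjusted p = 0.025 in limma), and 170 genes instead of 72 for diabetes without RBX. Over all genes, quantile normalization called 15 genes for RBX in diabetic mice with 53.3% higher, and centring on the 75th percentile 4 with 0% higher, against 5 with 20% higher. With 4 arrays per group, the SE of 0.12 to 0.32 limits what could be seen.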

Other observations

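The summed signal of the 2 B cell markers in the fit (Ighm and Cd22) was 47180 and 54288 on the arrays of non-diabetic mice 1 and 2, against 2706 to 5892 on the 14 others. The same 2 arrays had the highest signals of Rgs3 on the probe set in the fit, 4552 and 4536, while Rgs1, a transcript also known from B cells, was at 2677 and 2875 there, among the lower values of the 16. The 2 markers did not go together. Between non-diabetic RBX and non-diabetic mice Ighm had a log2 difference of -2.44 (SE 0.83) and Cd22 of 0.42 (SE 0.26).

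Markers of white and brown fat, which surrounds the aorta, summed to 118827 to 352324 in non-diabetic RBX mice and 69022 to 125426 in non-diabetic mice. Of the 5 in the fit all were above 0, with a median log2 difference of 1.29, and 2 rose (16.5% of all genes did). The 10 immediate early genes in the fit, which rise with tissue handling, had a median of -0.01 in the same comparison, with none that passed.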
